A study of Mus musculus with 8 samples.

Results

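Motile cilia and ependymal genes were examined in the hippocampus of mice before fear conditioning. The members were chosen by gene symbol: numbered genes of the Dnah, Dnai, Dnaic, Dnaaf, Cfap, Rsph and Tekt families, and 10 further genes (Foxj1, Tmem212, Ccdc153, Rarres2, Dynlrb2, Mcidas, Spag6l, Spag17, Hydin and Dnajb13). This rule found 79 of the 55188 genes in the deposited tables. Among them 78 are protein-coding and 1, Dnah2os, is an antisense gene inside Dnah2. The samples were whole hippocampal tissue of the strain C57BL/6, from wild-type (WT) mice and from mice labelled KO. The study's title gives the targeted gene as Pyk2, the protein of the gene Ptk2b, a tyrosine kinase that responds to calcium. All samples, WT included, are described as transgenic, and neither the allele nor the age of the mice is given in these sources. Each group held 2 numbered animals, and each animal was sequenced as 2 technical replicates, giving 8 libraries. Whether each number is 1 mouse is not stated in the labels, and p-values here reflect only the spread among these 4 numbered units, which may be technical.

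A motile cilium beats because dynein motors slide its outer microtubule doublets against each other, while radial spokes and a central microtubule pair regulate the stroke. Ependymal cells, which line the brain ventricles, carry tufts of such cilia and move cerebrospinal fluid, and choroid plexus epithelium is ciliated too. Neurons and astrocytes bear single primary cilia, which share the transport machinery but lack most of the beating apparatus. The master regulator Foxj1 switches on the motile program together with transcription factors of the RFX family.

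Values are FPKM, by definition fragments scaled by transcript length and by library total. How these were computed is not given, so levels of different genes are set against each other with that limit. The 8 libraries listed 26482 to 27871 genes above 0, with summed FPKM of 489121 to 506216. Fragment totals were not used here, so the precision of a single value is given by the confidence limits deposited with it. The targeted gene Ptk2b was higher in the KO-labelled pair, at 273 ± 6.33 FPKM against 217 ± 21 FPKM in WT (SD, n = 2 each; limma adjusted p = 0.158). That level goes against the KO label, gene-level values do not show which part of the gene the allele changes, and every direction below is for the libraries as labelled.

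Most motile cilia genes were lower in both KO-labelled animals, and lowest in KO1. Of the 78 members above 0 in any animal, 72 had a lower mean FPKM in the KO-labelled pair, where 58.8% of the 34097 genes above 0 did. For 54 of the 78 both KO-labelled animals were under both WT animals, against 24.9% of those genes. For 37 of the 78 all 4 KO-labelled libraries lay below all 4 WT libraries, against 7.76%. Among the 45 members with a mean of at least 1 FPKM over the 4 animals, 42 had a lower mean (56.5% of 14540 genes of that level), and both KO-labelled animals were below both WT animals for 38, where 29.9% of those genes were. Summed over all 79 members, FPKM were 358 and 344 in WT1 and WT2, and 242 and 298 in KO1 and KO2. The sum in the KO-labelled pair was thus 77.0% of WT. The library sums did not overlap, at 343 to 361 FPKM in WT and 238 to 303 FPKM in the KO-labelled libraries. Permuting the 4 animals exactly (two-sided) gave p = 0.33, which is as low as 2 against 2 can go. In bulk tissue, fewer cells of a type and less RNA per cell cannot be told apart.

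No member passed the threshold of an adjusted p under 0.05. The test was limma on log2(FPKM + 1) over the 16667 genes with at least 0.5 FPKM in 2 animals, and it called 0.054% of them. Of the 79 members 63 were tested, 48 reaching the minimum in all 4 animals, 14 in both WT animals and 1 labelled KO, and 1 only in WT. Members of the last 2 kinds entered through the group where they are higher, so counts over the tested members are a description. At an unadjusted p under 0.05, 31 of the 63 were lower and 0 higher, beside 11.4% of all tested genes that were lower at that p. Of the 63 tested members 60 had a lower mean log2 value, as did 58% of all tested genes. For 8 the deposited limits of the groups did not overlap, against 1.93%. The median log2 difference of the 63 was -0.33, against -0.02 for all tested genes. Without KO2, where the lone KO1 is assumed to vary like the WT animals, 11 members passed, beside 1.25% of tested genes passing in the same direction. These were Cfap126, Dynlrb2, Foxj1, Rsph1, Tekt1, Cfap65, Cfap44, Cfap69, Rsph4a, Cfap206 and Cfap43. Without any other animal 0 passed, and the unadjusted count of lower members ran from 19 without WT1 to 50 without KO2, where 7.18% and 14.2% of all genes tested in those fits were lower at that p.

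**Figure D1:**
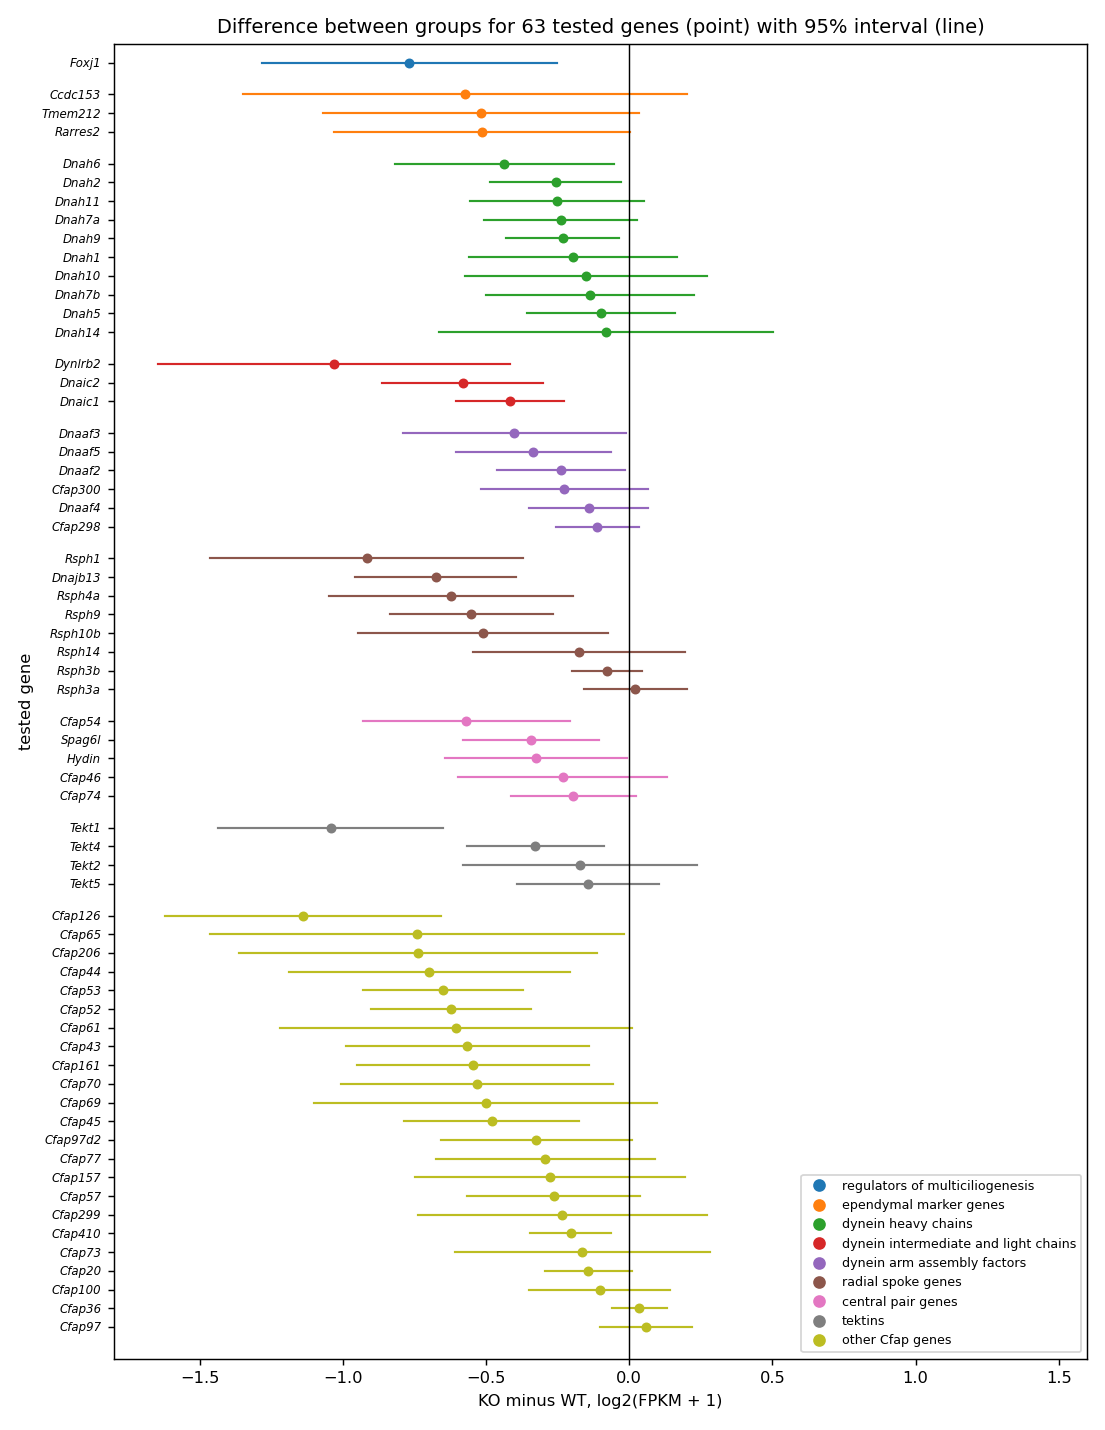
Difference between the KO-labelled pair and WT on the log2(FPKM + 1) scale (x axis, points) with its 95% interval from limma (lines) for the 63 tested genes, coloured by role. The points run from -1.14 (Cfap126) to 0.06 (Cfap97), and 60 of the 63 lie below 0.

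The promoters of these genes were read first for letters they share, because the binding site of RFX factors, the X-box, is an inverted repeat of the core GTTGCC. RefSeq promoter windows (GRCm38.p6, 250 bases before to 50 after a start site) matched 64 members by symbol, with 71 windows. The core GTTGCC, searched on both strands, was in the windows of 27 of the 64 members (42.2%), where 14.1% of the 27025 genes in the table have it. Of 81 other axoneme genes 39 had it (48.1%), of 40 intraflagellar transport and BBSome genes 17 (42.5%), and of 24 choroid plexus marker genes 6 (25%). In the 50 bases just before the start site 16.9% of the member windows held it, against 2.63% of the windows of tested genes. The full X-box searched (GTTGCC, any 2 bases, GG, any base, AAC) was in 1 member, Cfap298, and in 0.355% of all genes. The forkhead letters GTAAACA were in 4 of the 64 members (6.25%), against 4.05% of all genes. A match is a run of letters and no measured binding.

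An inverted repeat, GTTGC and GCAAC with 3 or 4 bases of any kind between, was in 12 of the 64 members (18.8%), against 0.444% of all genes, 6.17% of the other axoneme genes, and 2.5% of the transport genes. Without the 3 members it was chosen from, it was in 9 of 61 (14.8%), and with the Dnah7 copies counted once in 7 of 59 (11.9%). It overlaps the core and the X-box. It was chosen after the stretches of Dnaic2, Dynlrb2 and Hydin were seen. Longer forms of the core were also tried and not carried forward. The stretches are shown because they make the shared repeat visible across dynein, central pair, tektin and Cfap genes. Each is 30 bases of mm10 on the strand of the gene, before the RefSeq start site, with every GTTGC and GCAAC in capitals. Of the 12 stretches shown, 4 overlap an exon in GENCODE M21, those of Cfap298, Dnah7b, Dynlrb2 and Hydin.
Dynlrb2 (chr8:116504956-116504985): cctgcctgGTTGCctaGCAACgggggaagc
Dnaic2 (chr11:114727378-114727407): cggccaggGTTGCtagGCAACtggtaaact
Dnah7a (chr1:53706820-53706849): gccagtttGTTGCttaGCAACgaatcgacc
Dnah7b (chr1:46066821-46066850): gccagtttGTTGCttaGCAACgaatcgacc
Dnah7c (chr1:46425441-46425470): tccagtttGTTGCttaGCAACgaatcgacc
Hydin (chr8:110266947-110266976): cactctgcgGTTGCtgtgGCAACagatggt
Tekt2 (chr4:126325696-126325725): agggggcgGTTGCtcgGCAACcagagccgc
Tekt4 (chr17:25471546-25471575): gtgaccctGTTGCtcaGCAACaggaggcag
Cfap44 (chr16:44394764-44394793): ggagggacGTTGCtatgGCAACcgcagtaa
Cfap298 (chr16:90935016-90935045): gggttttgGTTGCccggGCAACagctactt
Tekt1 (chr11:72361883-72361912): cGTTGCgtccgtccgGTTGCcatagagacc
Ccdc153 (chr9:44240513-44240542): ctgagttttccaGTTGCctggacaacgtgc
The last pair, Tekt1 and Ccdc153, hold GTTGC without the exact repeat. Rsph3b, another member with a repeat, has it after the start site. Holding the repeat did not go with 1 size of difference: Dynlrb2 stood at 45.6% of its WT level in the KO-labelled pair, Hydin at 52.8%, Dnah7a at 76.9% and Cfap298 at 92.3%.

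**Figure D2:**
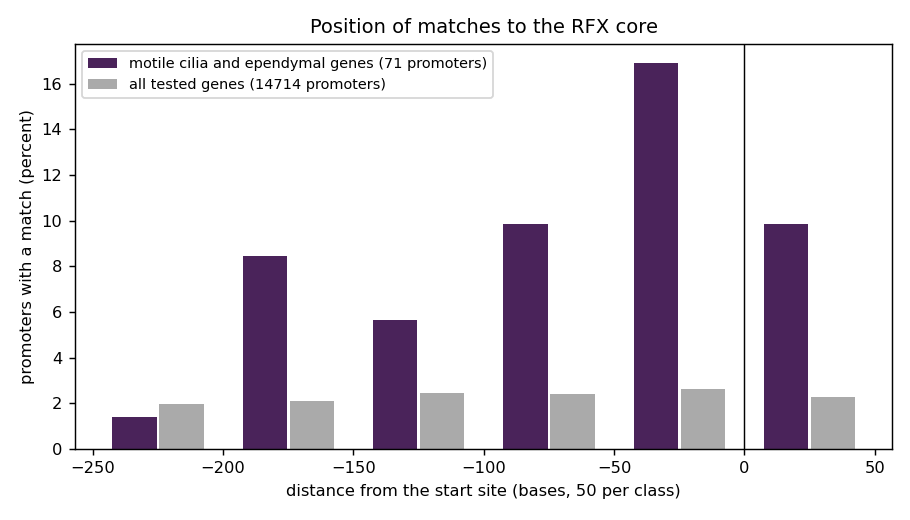
Share of promoter windows with the RFX core (GTTGCC) (y axis, percent) in classes of 50 bases by distance from the start site (x axis), for 71 windows of motile cilia and ependymal genes (dark bars) and 14714 windows of tested genes (grey bars). The dark bars are tallest in the 50 bases just before the start site, at 16.9% against 2.63%.

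The regulator Foxj1, the transcription factor of the motile cilium program (ENSMUSG00000034227, chromosome 11, 116330704 to 116335399), was lower in every KO-labelled library. It stood at 10.6 and 10.2 FPKM in the libraries of WT1, 10.2 and 9.79 in those of WT2, 4.44 and 4.22 in KO1 and 7.22 and 7.02 in KO2. The lowest deposited lower limit in WT was 9.16 FPKM, and the highest upper limit in the KO-labelled libraries was 7.75 FPKM, so these limits did not overlap. The difference in log2(FPKM + 1) was -0.77 (SE 0.20, 95% interval -1.28 to -0.25) and did not pass (limma adjusted p = 0.206, 0.0200 to 0.563 over the alternatives). Mcidas, which starts multiciliogenesis in precursor cells, was near the limit of detection in every library, at 0.109 FPKM or less, and was not tested.

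For the ependymal marker genes the WT animals differed from each other, with WT1 the higher, and KO2 lay near WT2. Ccdc153 stood at 16.6 and 14 FPKM in the libraries of WT1, 11.47 and 11.41 in those of WT2, 7.13 and 5.09 in KO1 and 11.7 and 11.99 in KO2. Both libraries of KO2 were thus above both of WT2, and KO1 was lowest. Tmem212, a transmembrane protein gene, stood at 8.21 and 6.64 FPKM in the libraries of WT1, 5.53 and 5.32 in those of WT2, 3.13 and 3.45 in KO1 and 5.11 and 5.18 in KO2. Rarres2, which encodes the secreted chemoattractant chemerin, stood at 16.5 and 19.1 FPKM in the libraries of WT1, 14 and 13.6 in those of WT2, 9.26 and 8.31 in KO1 and 12.95 and 12.93 in KO2. For both genes every KO-labelled library was below every WT library, with KO2 close under WT2. None of the 3 passed (limma adjusted p = 0.427, 0.342 and 0.324). The span of Rarres2 overlaps Lrrc61 on the other strand, a gene at 10.5 FPKM.

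**Figure D3:**
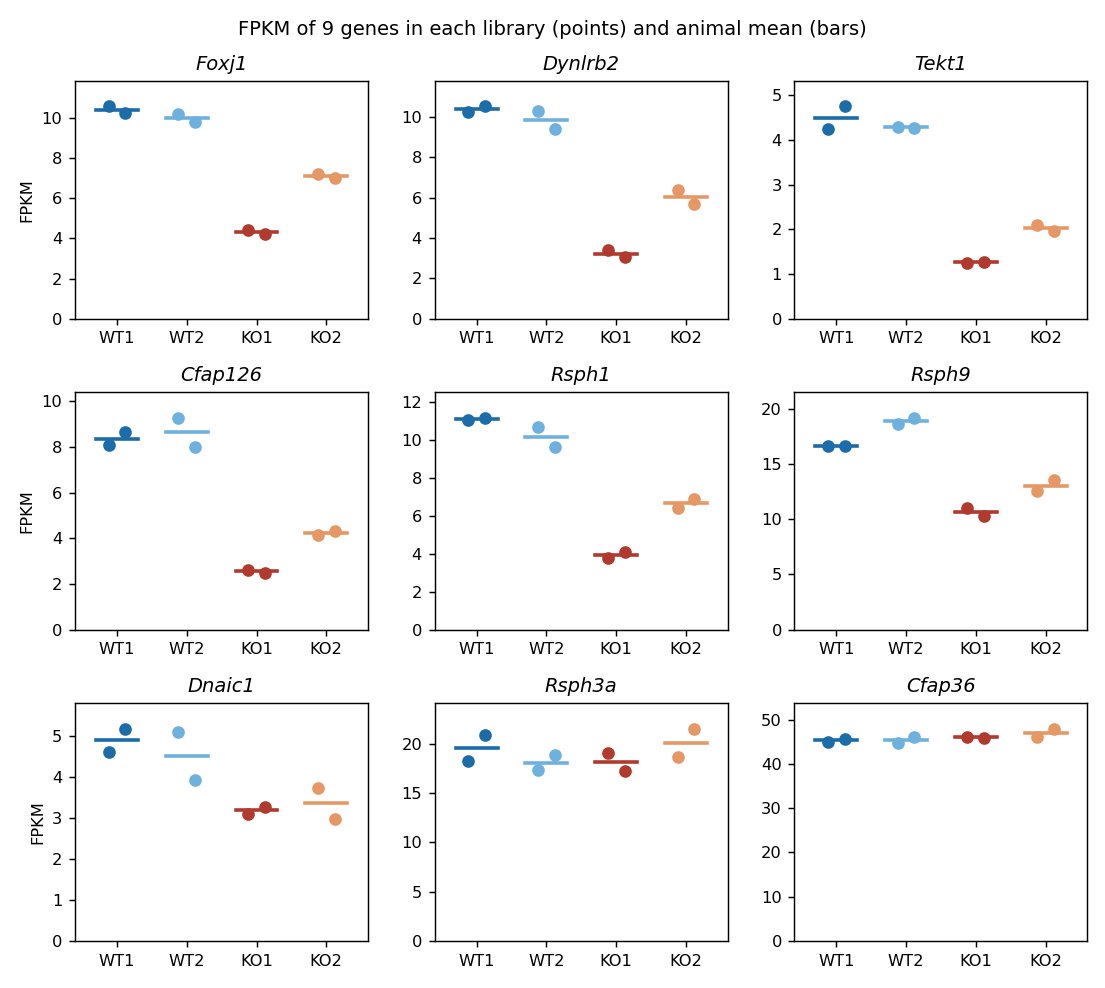
FPKM (y axis, from 0) of 9 genes in each of the 8 libraries (points) by animal (x axis), with bars at the animal mean. For Foxj1, Dynlrb2, Tekt1, Cfap126, Rsph1 and Rsph9 KO1 is lowest and KO2 lies between KO1 and WT, while Rsph3a and Cfap36 overlap between groups.

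The dynein intermediate and light chains, 3 subunits that attach and regulate the motor, had a median of 50.1% of WT. Dynlrb2, a roadblock-type light chain (ENSMUSG00000034467, chromosome 8, 116504974 to 116515915), stood at 10.2 and 10.5 FPKM in the libraries of WT1, 10.3 and 9.41 in those of WT2, 3.41 and 3.04 in KO1 and 6.35 and 5.67 in KO2. Its groups did not overlap, and the log2 difference was -1.03 (SE 0.24, limma adjusted p = 0.174). Dnaic2, an intermediate chain of the outer arm, stood at 1.92 and 2.03 FPKM in the libraries of WT1, 1.82 and 2.03 in those of WT2, 1.01 and 0.603 in KO1 and 1.22 and 1.07 in KO2 (log2 difference -0.58, SE 0.11, adjusted p = 0.128). Dnaic1, its partner in the outer arm, was at 4.70 ± 0.275 FPKM for WT and 3.27 ± 0.120 FPKM for the KO-labelled pair (SD, n = 2 each; adjusted p = 0.117). Dnaic1 differed little between KO1 and KO2, at 67.8% and 71.4% of WT, and its span overlaps Enho, a gene at 28.3 FPKM, so reads of the pair cannot be fully separated. For these 3 subunits every KO-labelled library was below every WT library, as for 13% of all tested genes.

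The dynein heavy chains, the motors proper, were low genes. Of the 15, all above 0, 14 had a lower mean in the KO-labelled pair, Dnah17 being at 104% of WT. For 6 both KO-labelled animals were below both WT animals. Of all genes above 0, 58.8% had a lower mean, and 24.9% had both KO-labelled animals below both WT animals. The median of the 15 was 80.2% of WT. Only 10 were tested, and 6 of these reached the minimum in both WT animals but only 1 labelled KO. Dnah9, a heavy chain of the outer arm and the highest of the family, stood at 3.49 and 4.16 FPKM in the libraries of WT1, 3.56 and 3.30 in those of WT2, 3.24 and 2.59 in KO1 and 2.54 and 3.36 in KO2. The libraries overlapped although the animal means did not (log2 difference -0.23, SE 0.08, adjusted p = 0.268). Dnah6, of the inner arms, was at 1.16 ± 0.0187 FPKM for WT and 0.609 ± 0.312 FPKM for the KO-labelled pair, with KO1 at 33.5% and KO2 at 71.7% of WT. Dnah10, Dnah7b and Dnah5 stood at 44.1%, 51.1% and 68.7% of WT in KO1 but at 113%, 108% and 99.2% in KO2. Dnah14 went the other way between the animals, with KO1 at 139% and KO2 at 45.4% of WT, and 0.158 to 1.73 FPKM in the WT libraries. The span of Dnah14 overlaps Lbr on the other strand, a gene at 2.89 FPKM. Dnah7a, Dnah7b and Dnah7c are near-identical copies, so how reads were shared among them is uncertain.

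Factors that assemble dynein arms in the cytoplasm were also lower in both KO-labelled animals. This held for all 7 against both WT animals, beside 24.9% of all genes above 0. Their median was 76.9% of WT, and 6 were tested. Dnaaf5, the highest of the Dnaaf genes, stood at 3.28 ± 0.238 FPKM for WT and 2.40 ± 0.378 FPKM for the KO-labelled pair (log2 difference -0.33, SE 0.11, limma adjusted p = 0.255). Among those tested, Dnaaf3 was lowest at 57.5% and Cfap298 highest at 92.3% of WT.

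Of 9 radial spoke genes 6 had both KO-labelled animals below both WT animals, beside 24.9% of all genes above 0, and 8 were tested. Rsph3b is 1 of the 6, though its difference was small. Rsph1, of the spoke head (ENSMUSG00000024033, chromosome 17, 31255019 to 31277383), stood at 11.1 and 11.2 FPKM in the libraries of WT1, 10.7 and 9.61 in those of WT2, 3.78 and 4.08 in KO1 and 6.44 and 6.92 in KO2 (log2 difference -0.92, SE 0.21, adjusted p = 0.174). Rsph9, also of the head, stood at 16.6 FPKM in both libraries of WT1, 18.6 and 19.2 in those of WT2, 10.97 and 10.3 in KO1 and 12.5 and 13.5 in KO2 (log2 difference -0.55, SE 0.11, adjusted p = 0.141). The span of Rsph9 overlaps Mrps18a, a gene at 37.1 FPKM. In Rsph1 and Rsph9 the groups stood apart, and the head gene Rsph4a was at 55.2% of WT as well. Dnajb13, a co-chaperone-like spoke protein, stood at 1.32 and 1.69 FPKM in the libraries of WT1, 1.08 and 1.5 in those of WT2, 0.356 and 0.440 in KO1 and 0.545 and 0.669 in KO2 (adjusted p = 0.111). The span of Dnajb13 overlaps Ucp2 on the other strand, a gene at 23.3 FPKM, so part of its reads may belong there. The paralogs Rsph3a and Rsph3b, of the spoke stalk, were at 102% and 94.4% of WT, and how reads were shared between these copies is uncertain. Rsph3a was 18.8 ± 1.04 FPKM for WT and 19.1 ± 1.38 FPKM for the KO-labelled pair, and its difference of 0.02 turned negative without WT2 (-0.03) and without KO2 (-0.05).

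Central pair genes were lower at low levels. Hydin, a very large protein of the central pair, stood at 0.738 and 0.818 FPKM in the libraries of WT1, 0.691 and 0.672 in those of WT2, 0.255 and 0.243 in KO1 and 0.495 and 0.547 in KO2. Every KO-labelled library was below every WT library (log2 difference -0.33, SE 0.12, limma adjusted p = 0.312), and the pseudocount makes that difference small at this level. Spag6l, an armadillo-repeat protein of the central pair, stood at 4.73 ± 0.251 FPKM for WT and 3.52 ± 0.429 FPKM for the KO-labelled pair (adjusted p = 0.213). The span of Spag6l overlaps Rpl31-ps12, a pseudogene on the same strand at 6.545 FPKM. Spag17, of the central pair projections, was below the minimum, at 0.319 ± 0.0612 and 0.262 ± 0.0199 FPKM. Of the 8 genes of this group all had a lower mean in the KO-labelled pair, and 7 had both KO-labelled animals below both WT animals. Among all genes above 0 these shares were 58.8% and 24.9%.

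Tektins, filament proteins inside the doublet, held the member with the smallest p. Tekt1 (ENSMUSG00000020799, chromosome 11, 72344722 to 72362442) stood at 4.25 and 4.75 FPKM in the libraries of WT1, 4.29 and 4.27 in those of WT2, 1.25 and 1.26 in KO1 and 2.11 and 1.97 in KO2. The KO-labelled libraries lay far under WT, and the technical replicates of each animal were close. The log2 difference was -1.04 (SE 0.15, 95% interval -1.44 to -0.65, limma adjusted p = 0.0999, 0.0225 to 0.397 over the alternatives), and the mean was 37.5% of WT. Tekt4 was at 61.5% of WT, while Tekt5, known best from sperm, was 3.73 ± 0.512 FPKM for WT and 3.27 ± 0.109 FPKM for the KO-labelled pair, with overlapping libraries. Tekt2 and the untested Tekt3 stood at 44.4% and 18.7% of WT in KO1 but at 101% and 104% in KO2. All 5 tektins had a lower mean in the KO-labelled pair, and 3 had both KO-labelled animals below both WT animals. Among all genes above 0 these shares were 58.8% and 24.9%.

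Of the other Cfap genes, named as cilia and flagella associated proteins, 25 of 26 were above 0. Of these 23 had a lower mean in the KO-labelled pair and 18 had both KO-labelled animals below both WT animals. Among all genes above 0 these shares were 58.8% and 24.9%. Cfap126, known as Flattop and needed for basal body docking (ENSMUSG00000026649, chromosome 1, 171113918 to 171126967), stood at 8.06 and 8.64 FPKM in the libraries of WT1, 9.27 and 7.999 in those of WT2, 2.63 and 2.48 in KO1 and 4.16 and 4.30 in KO2. It had the most negative difference of all tested members, -1.14 (SE 0.19, 95% interval -1.62 to -0.66, adjusted p = 0.112), and its groups did not overlap. Cfap53, which serves dynein docking and left-right patterning, was at 1.13 ± 0.113 FPKM for WT and 0.360 ± 0.137 FPKM for the KO-labelled pair (adjusted p = 0.114). Cfap53 reached the minimum only in WT, so it could be tested only because it is higher there. Its span overlaps Gm14328, a pseudogene on the other strand at 0.842 FPKM. Cfap52, a protein of the doublet lumen, was at 2.64 ± 0.381 FPKM and 1.36 ± 0.164 FPKM (adjusted p = 0.117).

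Some Cfap members, named after their values were seen or as the highest of the family, were nearer to WT level. Cfap36, which binds the ciliary GTPase Arl3, stood at 45.0 and 45.7 FPKM in the libraries of WT1, 44.7 and 46.0 in those of WT2, 46.1 and 45.9 in KO1 and 46.1 and 48.0 in KO2. Its difference was 0.04 with a 95% interval of -0.06 to 0.13. Cfap97 was at 105%, Cfap20 at 90.3% and Cfap410 at 85.9% of WT. The span of Cfap97 overlaps Snx25 on the other strand, a gene at 13.96 FPKM.

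The animals labelled KO differed from each other in the same genes. KO1 had a lower mean than KO2 for 61 of the 63 tested members, as for 58% of all tested genes, and both libraries of KO1 were below both of KO2 for 52, where 31.1% of tested genes were. The reverse held for 2 members, against 21% of tested genes. The median over members was 47.1% of WT in KO1 and 80.9% of WT in KO2, while the medians over all tested genes were 96.9% and 98.9%. WT1 and WT2 were closer: both libraries of WT1 were above both of WT2 for 18 members and below for 7, against 23% and 24% of tested genes. For 47 of the 63 the order was KO1 below KO2 below both WT animals, where 20.9% of all tested genes had it. Of the 63, 14 reached the minimum in only 1 KO-labelled animal and 1 only in WT, so these counts are a description. KO1 and KO2 share the WT animals as reference here. Without KO1 the median log2 difference was -0.22 and the sum 85.0% of WT, and without KO2 they were -0.45 and 69.0%.

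**Figure D4:**
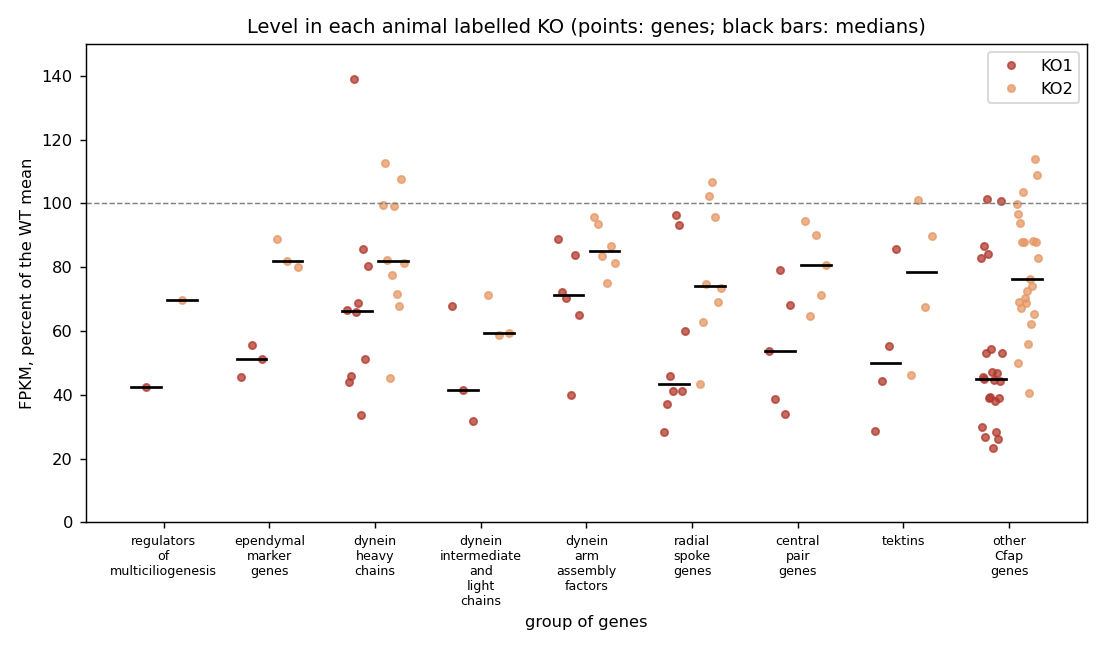
FPKM of each tested gene in KO1 (dark) and KO2 (light) in percent of its WT mean (y axis, linear from 0, dashed line at 100) by role (x axis), with black bars at the medians. In every group of genes the median is lower in KO1 than in KO2, as for the dynein intermediate and light chains at 41.4% and 59.4%.

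Other genes of the pathway were read from lists chosen for their roles. Of 101 further axoneme genes, 92 were tested, 0 passed, and 45 were lower and 1 higher at an unadjusted p under 0.05. The lower share was 48.9%, beside 11.4% of all tested genes. Their median log2 difference was -0.34, close to the -0.33 of the members. Drc7, of the nexin-dynein regulatory complex, was at 10.6 ± 0.681 FPKM for WT and 2.39 ± 1.31 FPKM for the KO-labelled pair (limma adjusted p = 0.0996). Ccdc113, a coiled-coil protein of cilia, was at 3.22 ± 0.180 and 1.39 ± 0.355 FPKM (adjusted p = 0.1003), and 1700016K19Rik at 3.57 ± 0.281 and 1.57 ± 0.0347 FPKM (adjusted p = 0.0904).

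The shared transport machinery of all cilia was nearer to WT level. For 45 intraflagellar transport and BBSome genes the median log2 difference was -0.08 and the sum 98.5% of WT. None passed, and 10 (22.2%) were lower and 1 higher at an unadjusted p under 0.05, beside 11.4% of all tested genes lower at that p. For 48.9% of the 45 both KO-labelled animals were below both WT animals, beside 30.7% of all tested genes. Ift172, of the transport train, was at 11.95 ± 0.844 FPKM for WT and 9.31 ± 0.404 FPKM for the KO-labelled pair (adjusted p = 0.148). Centriole amplification genes, 16 tested, had a median of -0.09 with 0 passing and 5 (31.25%) lower at an unadjusted p under 0.05. Other regulators of ciliogenesis, 22 tested, had a median of -0.07 with 0 passing, 4 (18.2%) lower and 1 higher. In the latter list Trp73, a transcription factor of multiciliated cells, was at 2.01 ± 0.0697 FPKM for WT and 1.11 ± 0.291 FPKM for the KO-labelled pair (adjusted p = 0.171). Rfx2, an RFX factor, was at 1.81 ± 0.0942 and 1.18 ± 0.168 FPKM (adjusted p = 0.194). Quantile normalization moved the transport median to -0.00281, the centriole median to -0.00660 and the regulator median to 0.00537.

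Markers of choroid plexus, blood and meningeal fibroblasts were lower too. The 32 choroid plexus markers summed to 4520 and 7865 FPKM in WT1 and WT2 and to 348 and 1351 FPKM in KO1 and KO2. All 32 were lower in the KO-labelled pair (median log2 difference -2.06, 0 passing, 32 lower at an unadjusted p under 0.05), and none of the 32 was at 0 in all libraries. Both lists were lowest in KO1. Between the WT animals they differed: the choroid plexus sum was 1.74 times as high in WT2 as in WT1, while the sum of the motile cilia members was 0.960 times as high. Both libraries of WT2 were above both of WT1 for 31 of the 32 choroid plexus markers and for 7 of the 63 members. Of all tested genes 24% had this order. Blood markers summed to 303 ± 21.1 FPKM for WT and 154 ± 6.46 FPKM for the KO-labelled pair, and Hba-a1 and Hba-a2 fell (limma adjusted p = 0.0372 and 0.0373). Over all genes 0 passed without WT1 and 1 without WT2, so neither gene passed without WT1 and at most 1 without WT2. The 13 tested meningeal fibroblast markers were all lower, as were 58% of all tested genes (median -0.29). None passed, and 4 were lower at an unadjusted p under 0.05, beside 11.4% of all tested genes. For 6 of the 13 both KO-labelled animals were below both WT animals, beside 30.7% of all tested genes. Their median was 86.9% of WT in KO1 and 63.4% in KO2, while the list's sum was 53.1% and 84.7%. The part of choroid plexus, blood and meningeal cells in the motile cilia values was not tested.

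Other ependymal markers, many of which astrocytes or choroid plexus also express, had a median of -0.17 over 25 genes. Among them 0 passed and 12 (48%) were lower at an unadjusted p under 0.05, beside 11.4% of all tested genes. Ezr, a membrane linker protein of microvilli, was at 36.9 ± 2.53 FPKM for WT and 24.0 ± 0.968 FPKM for the KO-labelled pair (limma adjusted p = 0.094). Mia, another ependymal marker, was at 6.68 and 9.10 FPKM in WT1 and WT2 and 2.72 and 4.23 FPKM in KO1 and KO2. Astrocyte markers summed to 106.8% and hippocampal neuron markers to 113% of WT, with 0 of 10 passing in each list. At an unadjusted p under 0.05, 2 astrocyte markers were lower and 1 higher, and 3 neuron markers were higher. Of all 16667 tested genes 11.4% were lower and 685 were higher at that p. Prox1, Wfs1, Neurod6 and Slc17a7, all of the neuron list, were present in every animal, the lowest value being 14.5 FPKM for Prox1 in WT2.

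**Figure D5:**
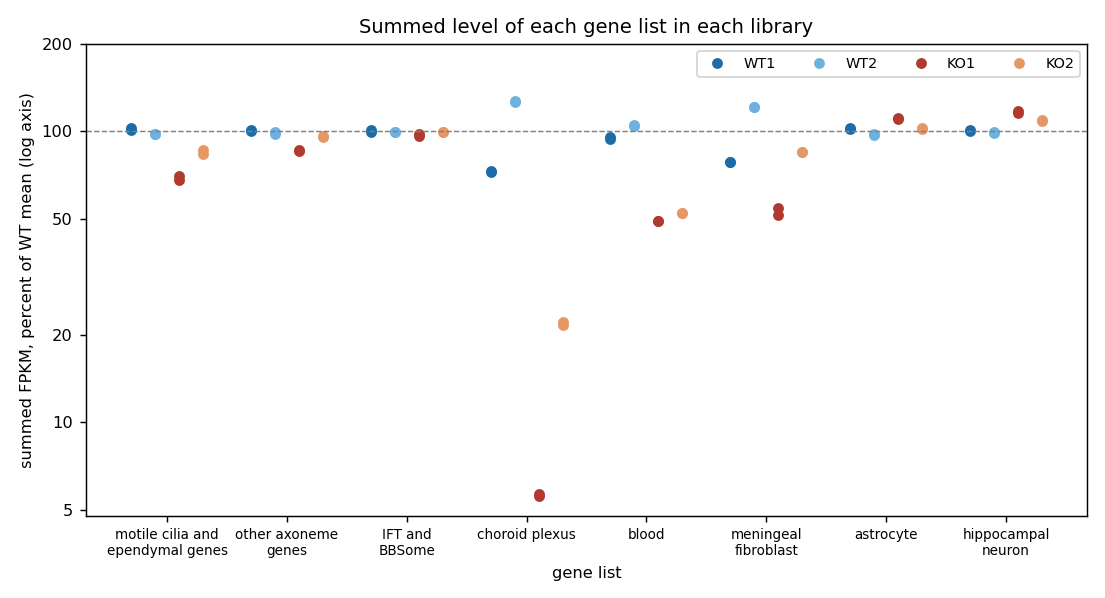
Summed FPKM of 8 gene lists in each library (points, coloured by animal) in percent of the WT mean of that list (y axis, log scale). The motile cilia genes lie at 69.0% in KO1 and 85.0% in KO2, the choroid plexus markers at 5.61% and 21.8%, and the intraflagellar transport genes at 97.1% and 99.8%.

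Some members were too low to test or share their position with other genes. The 16 members not tested had means of 0.400 FPKM or less over the 4 animals, and 12 were lower and 3 higher in the KO-labelled pair. Cfap97d1 was listed at 0 in every library. Dnah2os stood at 0.247 ± 0.00451 FPKM for WT and 0.0832 ± 0.0717 FPKM for the KO-labelled pair, but its reads cannot be told from those of Dnah2. The members lie on 20 chromosomes, and 32 of the 79 overlap another tested gene. Of the 38 tested members that do not, 37 were lower and 32 had both KO-labelled animals below both WT animals. Among all tested genes these shares were 58% and 30.7%.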

How the data were processed

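The authors deposited 1 gene table per library, holding FPKM, its confidence limits and a status code, per the file headers. Tools named in the submitters' processing notes are Bowtie (version 1) and HISAT, with build mm10. How FPKM were computed or scaled is not given in the sources used here, nor is a strand setting. Total RNA was prepared using Trizol, per the labels' protocols. Tables were joined by gene identifier, since their row orders differ; the 53 rows repeating an identifier were summed. Of all values 12 have a status that is not OK, 0 of them in a member, and were left missing.

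Technical replicates were averaged per animal. The 16667 genes reaching 0.5 FPKM in 2 animals were tested by limma 3.58.1 (R 4.3.3) on log2(FPKM + 1) (trended variance, KO minus WT, Benjamini-Hochberg over all genes, threshold 0.05). The pseudocount understates differences of low genes. The procedure was tested on simulated data. Changes were placed there only in genes of higher level than most tested members (median 2.08 FPKM), so recovery for such low genes was not measured. Coordinates are those of the deposited tables, counted from 1; 78 of 79 members have the same in GENCODE M21. Promoters come from RefSeq (GRCm38.p6). The stretch of 1 member is not reported here. Motifs were matched in Python 3.11.15, and figures drawn with matplotlib 3.10.9.

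The members, lists, minimum and roles were chosen with earlier results of these data known. Named genes are the 10 listed by name, the highest of each family, the tested members with the 10 smallest p and the 5 most positive and 5 most negative differences, Ptk2b, and the 3 genes with the smallest p of each list (not all are printed); others were chosen after their values were seen. Alternatives were another pseudocount, minimum, scaling, technical replicate, variance model and block, and each animal left out.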

Additional observations from a re-analysis of the deposited data

How the results depend on the processing

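With 2 animals a group, no alternative settles whether single genes differ, and low FPKM limit Hydin, Mcidas and most heavy chains. With 1 animal left out, 55 to 60 of the 62 or 63 members tested were lower. In the main fit 58% of all tested genes were lower, and that share is not given here for these fits. Each of them shares all but 1 animal with the main fit, so the kept direction is not independent evidence. Medians were -0.45 to -0.22, with 0 to 11 members called, 19 to 50 lower at an unadjusted p under 0.05, and sums of 69.0% to 85.0% of WT. A pseudocount of 0.1 gave a median of -0.55 for the members and -0.55 for the other axoneme genes, by its construction.

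The animal numbers are not stated to pair the samples (correlation of deviations 0.107 over genes); with the number as a replicate block 184 genes and 1 member, Rsph9, passed. The 9 genes called over all genes became 14 with a pseudocount of 0.1, 0 with no filter, 1 with no trended variance, 19 with first and 35 with second technical replicates, 20 with KO1 from its second library, and 0 to 224 with 1 animal left out.

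The astrocyte median (-0.000126) turned to 0.00538 with KO1 from its second library, 0.00346 with first technical replicates and 0.0300 after median-of-ratios scaling. The regulator median turned to 0.00537 after quantile normalization, where the transport median was -0.00281 and the median of all tested genes 0.0253. The centriole median was -0.14 with first technical replicates, -0.0680 after median-of-ratios scaling, -0.0718 with no filter, -0.12 with a pseudocount of 0.1 and -0.00660 after quantile normalization, and the blood median -0.23 with no filter. With 1 animal left out medians were -0.0128 to 0.0368 (astrocyte), -1.02 to -0.88 (blood), -0.14 to -0.0664 (centriole), -2.51 to -1.52 (choroid plexus), -0.14 to -0.0619 (transport), -0.44 to -0.12 (meningeal) and -0.32 to -0.10 (other ependymal). Dnah14 (-0.08) turned to 0.0862 with KO1 from its second library and 0.0150 after quantile normalization, and ran from -0.396 to 0.235 with 1 animal left out. Rsph3a (0.02) turned to -0.0135 with KO1 from its second library and -0.0409 with second technical replicates, and ran from -0.0493 to 0.0911 with 1 animal left out. The causes were not tested.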
